A study of Mus musculus with 22 samples.

Results

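The insulin-like growth factor (IGF) family was followed at the RNA level in mouse spinal cord through 10 genes of the 21995 in the deposited tables. The members were taken by gene symbol: the ligands Igf1 and Igf2, the receptors Igf1r and Igf2r, and the binding proteins Igfbp2, Igfbp3, Igfbp4, Igfbp5, Igfbp6 and Igfbp7. In SOD1-G93A mice, 5 members rose, Igf1, Igfbp2, Igfbp3, Igfbp5 and Igfbp7, each by more than a doubling, where 18.4% of all genes tested rose. Of these 5, 4 also rose in old mice, all but Igfbp3, by smaller amounts, where 13.5% of all genes rose. The Igfbp5 rise with age did not pass in every alternative fit. Neither receptor passed the test in either comparison.

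The study sequenced RNA from whole spinal cord to describe what changes with age and in a mouse model of amyotrophic lateral sclerosis (ALS), with 1 library per mouse and 22 libraries in all. All mice were labelled C57BL/6. The aging comparison had 8 young wild-type males of 3 to 4 months and 8 old wild-type males of 18 to 24 months, with libraries made by the Roche KAPA HyperPrep kit. The ALS comparison had 3 symptomatic SOD1-G93A mice and 3 wild-type controls of 5 to 6 months, with libraries made by the Illumina TruSeq kit. The SOD1-G93A transgene is a high-copy mutant human SOD1 gene with its own promoter, which is active in most cell types, so it is not limited to motor neurons. Both ALS groups mixed the sexes, and Y-linked genes had high counts in 1 of 3 libraries of each, 2383 in control d4444 and 2673 in SOD1-G93A library d4435, beside 1 to 12 in the others. The kit and the experiment cannot be told apart, so each comparison was made within its own kit. Total counts per library ran from 5078092 to 9358055 in young, 5664869 to 9145600 in old, 10693060 to 13219797 in control and 9675610 to 11872431 in SOD1-G93A libraries.

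The tissue label was checked with position genes. Hox genes of the trunk were present, led by Hoxb8, while the choroid plexus gene Ttr was at the floor of 3 counts or fewer in the aging comparison. The genotype label was checked with mouse Sod1, to which reads of the human transgene could map. Sod1 stood at 168, 156 and 156 CPM (counts of the gene divided by the scaled total of its library, times 1e6, with the scaling described below) in controls and at 298, 296 and 335 CPM in SOD1-G93A libraries, a log2 fold change of 0.95, where 1 is a doubling. All 3 SOD1-G93A libraries were above all 3 controls.

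A library stood apart in each comparison, counted over genes that passed the edgeR test described below. In the SOD1-G93A group, library d4437 had the smallest change: it held the lowest of the 3 SOD1-G93A values for 88.03% of the 2641 genes that rose and the highest for 89.0% of the 2236 genes that fell. It held the lowest value for 5 of the 5 members that rose. Among the 8 old libraries, d149034 held the lowest value for 44.4% of the 1839 genes that rose with age and the highest for 34.3% of the 1761 that fell. It was lowest for 3 of the 4 members that rose. Each was picked as the library most often lowest among the members that rose, so leaving it out raises most of their changes by construction. For these members, results are given below with and without these libraries. The ranges with any library left out are given at the end.

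Igf1 and Igf2 are secreted growth factors that signal through the receptor tyrosine kinase Igf1r and the related insulin receptor, which act on the PI3 kinase, Akt and mTOR cascade. Igf2r carries lysosomal enzymes and clears Igf2 without such signaling. The binding proteins hold the ligands outside cells and set how much reaches the receptor, and Igfbp7 binds the ligands only weakly. In the central nervous system Igf1 is known as a survival factor for motor neurons, and microglia are among the cells that make it.

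Levels of different genes were compared as FPKM, fragments per kilobase of transcript, scaled to a common number of fragments per library, which takes out transcript length. In young spinal cord the binding proteins led. Igfbp2 stood at 20.3 ± 2.05 FPKM (mean ± SD, n = 8), Igfbp7 at 18.98 ± 1.47, Igfbp5 at 17.4 ± 2.88 and Igfbp4 at 17.4 ± 2.74, and the ranges of neighbours among these 4 overlapped. The receptors came next, Igf1r at 8.001 ± 0.747 FPKM and Igf2r at 5.58 ± 0.545, each apart from the gene above it. The ligand Igf2, at 4.84 ± 0.747 FPKM, overlapped with Igf2r. Igfbp3 followed at 3.52 ± 0.435 FPKM, then Igf1 at 1.42 ± 0.505 and Igfbp6 at 1.10 ± 0.244, whose ranges overlapped. The ligand whose RNA changed most was thus among the least abundant members, with 25 to 54 counts per young library.

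In old cord the order was Igfbp2 at 30.9 ± 6.36 FPKM, Igfbp7 at 23.8 ± 3.40, Igfbp5 at 22.6 ± 5.94, Igfbp4 at 16.3 ± 2.58, Igf1r at 8.29 ± 1.22, Igf2 at 5.36 ± 1.06, Igf2r at 5.28 ± 1.02, Igf1 at 4.36 ± 1.18, Igfbp3 at 3.52 ± 0.446 and Igfbp6 at 1.72 ± 0.722. Igf1 was above Igfbp3 in 7 of 8 old libraries, though their ranges overlapped, and its FPKM rests in part on a shorter transcript length assigned to it in old mice, described below. In the 3 controls Igfbp7 had the highest mean at 22.6 ± 3.17 FPKM (n = 3), with Igfbp4 at 16.9 ± 5.87 and Igfbp2 at 16.9 ± 2.51, and Igfbp5 at 12.5 ± 1.04. Igfbp7 was below Igfbp4 and Igfbp2 in control d4441. The range of Igfbp4 overlapped with those of Igfbp7, Igfbp2 and Igfbp5, and it was below Igfbp5 in control d4444. Below these stood Igf1r at 7.55 ± 0.691 FPKM, Igf2r at 4.43 ± 0.513, Igf2 at 4.36 ± 1.15, Igfbp3 at 3.44 ± 0.326, Igf1 at 1.62 ± 0.756 and Igfbp6 at 1.16 ± 0.409.

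In SOD1-G93A cord Igfbp2 reached 94.6 ± 48.3 FPKM (n = 3), Igfbp7 66.1 ± 22.6 and Igfbp5 62.3 ± 17.7, with overlapping ranges. Igf1 came next at 19.1 ± 7.50 FPKM, level with Igfbp4 at 14.9 ± 2.05 and ahead of Igfbp3 at 13.16 ± 4.00. Igf1r at 7.47 ± 0.640 FPKM, Igf2r at 5.54 ± 0.184, Igf2 at 4.48 ± 1.02 and Igfbp6 at 1.28 ± 0.408 closed the order. Igf1 therefore stood near the bottom of the family in controls and in the middle of it in SOD1-G93A mice, again with a shorter median assigned length in the latter.

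**Figure D1:**
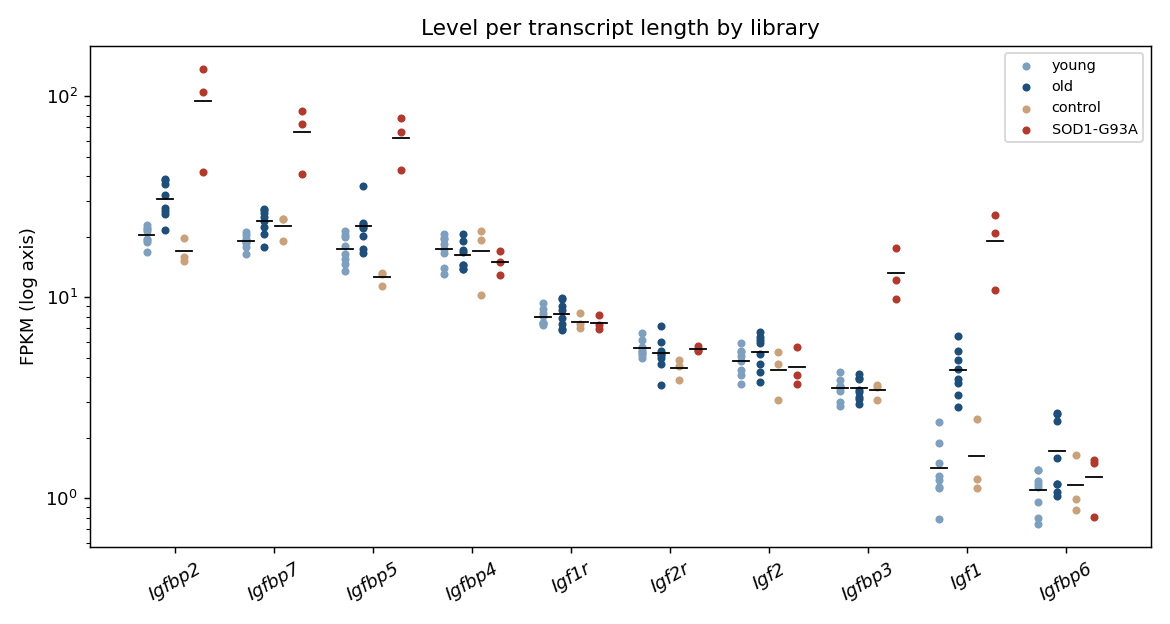
Level of each member in each library as FPKM on a log axis, by group (8 young, 8 old, 3 control and 3 SOD1-G93A libraries), with members ordered by their mean in young mice and a bar at each group mean. In SOD1-G93A mice Igfbp2, Igfbp7 and Igfbp5 are the 3 most abundant members and Igf1 moves up the order.

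Because 5 members rose together in SOD1-G93A mice, their promoters are printed, from RefSeq on GRCm38.p6, each 250 bases before to 50 bases after a transcription start, 5′ to 3′ on the strand of the gene. All 10 members matched the RefSeq promoter table, with 14 promoters. The Igf1 promoter is chr10:87860861-87861160 on the plus strand, Igfbp2 the upstream of a pair at chr1:72824230-72824529 on the plus strand, Igfbp3 chr11:7213874-7214173 on the minus strand, Igfbp5 chr1:72874816-72875115 on the minus strand and Igfbp7 chr5:77407996-77408295 on the minus strand. Capitals mark matches, on either strand, to a set of short motifs.
Igf1: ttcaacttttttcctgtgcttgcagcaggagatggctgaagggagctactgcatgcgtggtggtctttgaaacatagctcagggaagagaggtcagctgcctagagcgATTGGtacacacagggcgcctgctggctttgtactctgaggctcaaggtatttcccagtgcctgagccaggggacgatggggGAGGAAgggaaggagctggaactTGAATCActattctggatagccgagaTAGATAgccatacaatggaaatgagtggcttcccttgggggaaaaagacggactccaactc
Igfbp2: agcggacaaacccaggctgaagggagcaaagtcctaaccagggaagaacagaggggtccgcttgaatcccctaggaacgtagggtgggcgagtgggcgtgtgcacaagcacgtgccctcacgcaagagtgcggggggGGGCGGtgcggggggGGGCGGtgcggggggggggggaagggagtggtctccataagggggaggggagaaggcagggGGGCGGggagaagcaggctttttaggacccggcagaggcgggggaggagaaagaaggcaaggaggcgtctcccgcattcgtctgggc
Igfbp3: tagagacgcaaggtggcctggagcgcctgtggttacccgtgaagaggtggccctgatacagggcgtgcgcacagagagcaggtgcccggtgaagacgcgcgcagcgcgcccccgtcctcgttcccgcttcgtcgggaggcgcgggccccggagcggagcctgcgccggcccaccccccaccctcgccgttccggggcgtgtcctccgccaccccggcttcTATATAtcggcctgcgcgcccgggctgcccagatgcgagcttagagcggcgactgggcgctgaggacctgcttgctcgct
Igfbp5: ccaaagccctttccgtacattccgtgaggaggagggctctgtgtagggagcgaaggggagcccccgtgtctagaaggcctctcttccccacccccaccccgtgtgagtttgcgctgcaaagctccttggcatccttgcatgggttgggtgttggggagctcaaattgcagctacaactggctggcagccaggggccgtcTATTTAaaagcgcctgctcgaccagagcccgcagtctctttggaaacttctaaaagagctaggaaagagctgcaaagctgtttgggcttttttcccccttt
Igfbp7: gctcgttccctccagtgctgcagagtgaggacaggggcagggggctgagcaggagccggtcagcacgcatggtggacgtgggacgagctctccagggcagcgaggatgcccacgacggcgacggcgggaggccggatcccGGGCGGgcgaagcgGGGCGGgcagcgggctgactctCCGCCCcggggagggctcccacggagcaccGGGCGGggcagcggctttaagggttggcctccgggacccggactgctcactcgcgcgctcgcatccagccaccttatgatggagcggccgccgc
The motifs were searched on both strands in 32851 promoters of 300 bases. They were the TATA box TATAAA, found in 13.6% of all promoters, a TATA-like element TATNTA in 27.2%, the GC box GGGCGG in 35.7% and the CCAAT box CCAAT in 37.4%. The others were the AP-1 element TGANTCA in 7.81%, the PU.1 core GAGGAA in 28.3%, the FOXO element GTAAACA in 3.65% and the STAT element TTCNNNGAA in 8.30%. TATNTA was chosen after these sequences had been seen. It is a separate motif from TATAAA, though their matches can overlap in a sequence.

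No motif of this set was in all 5 promoters. The Igf1 window lies inside the annotated span of the gene, which starts at position 87858265, where another annotated transcript starts upstream. Igf1 held 1 match each to the CCAAT box, the AP-1 element, the PU.1 core and the TATA-like element. The printed Igfbp2 promoter held 3 GC boxes and that of Igfbp7 held 4, in windows with 67.0% and 73.3% G and C, beside a median of 52.7% over all promoters. The downstream Igfbp2 promoter, chr1:72825137-72825436, held no GC box, 1 AP-1 element and 2 PU.1 cores. Igfbp3 and Igfbp5 each held 1 TATA-like element and no other match. A match describes these letters only.

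Changes were tested gene by gene with the edgeR quasi-likelihood test on counts. CPM values were scaled by the trimmed mean of M values (TMM), which sets libraries to a common depth. Log2 fold changes are given with their standard error (SE). A gene rose or fell where its p, adjusted by Benjamini-Hochberg over all genes tested in that comparison, was under 0.05, and the threshold of the study, a log2 fold change beyond 1, was counted beside it. All 10 members passed the filter on low counts in both comparisons. Fewer cells of a type and less RNA per cell cannot be told apart in whole tissue.

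In old mice Igf1 and 3 binding proteins, Igfbp2, Igfbp5 and Igfbp7, were higher than in young mice, by 1.26-fold to 1.78-fold, while the receptors, Igf2, Igfbp3, Igfbp4 and Igfbp6 did not pass the test. That is 4 of 10 members higher, where 13.5% of all 13647 genes tested were higher. None fell, where 12.9% of all genes did, and none fell at an unadjusted p under 0.05 either, by edgeR or by DESeq2. By counts the rises stayed below the threshold of the study: 0 of 10 members passed a log2 fold change of 1 by edgeR, with 0 at an unadjusted p under 0.05 and 0 by DESeq2, where 2.18% of all genes did. The median log2 fold change of the members was 0.27, beside 0.00 over all genes tested. From FPKM in place of counts, limma gave Igf1 a log2 fold change of 1.15, past the threshold.

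Igf1 had the largest rise with age among the 4. Its values ran from 4.85 to 6.67 CPM with a median of 5.69 in young libraries, and from 6.17 to 16.3 CPM with a median of 9.89 in old libraries. Of 8 old libraries, 7 were above every young library, and the groups met only at d149034, the old library with the lowest value. The log2 fold change was 0.83 (SE 0.148, adjusted p = 0.000191 by edgeR), a 1.78-fold rise. Without d149034 it was 0.91 (SE 0.131).

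Igf2, the growth factor best known from fetal tissues, ran from 10.2 to 16.6 CPM in young and from 12.3 to 18.6 CPM in old libraries. The groups overlapped, and the log2 fold change was 0.21 (SE 0.110, adjusted p = 0.159 by edgeR).

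Neither receptor passed the test with age. Igf1r lay between 83.5 and 105 CPM in young and between 83.2 and 109 CPM in old libraries, with a log2 fold change of 0.02 (SE 0.0587). Igf2r lay between 44.5 and 54.0 CPM in young and between 38.4 and 56.9 CPM in old libraries, with a log2 fold change of -0.04 (SE 0.0657). Young and old libraries overlapped throughout for both.

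Igfbp2, the most abundant binding protein RNA per length in young cord, ran from 19.2 to 24.4 CPM with a median of 22.4 in young libraries and from 25.1 to 42.0 CPM with a median of 33.3 in old libraries. Every old library was above every young one, for 1 of 10 members, where 3.66% of all genes tested had this separation. The log2 fold change was 0.59 (SE 0.100, adjusted p = 0.000107 by edgeR), and 0.64 without d149034.

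Igfbp7 ran from 18.6 to 24.7 CPM with a median of 22.1 in young libraries and from 22.8 to 32.4 CPM with a median of 28.7 in old libraries. Of 8 old libraries, 6 were above every young library. Its log2 fold change was 0.33 (SE 0.0779, adjusted p = 0.00278 by edgeR), and 0.37 without d149034.

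Igfbp5 ran from 81.7 to 134 CPM with a median of 107 in young libraries and from 103 to 209 CPM with a median of 139 in old libraries. The groups overlapped, with 5 of 8 old libraries above every young one. Its log2 fold change of 0.37 (SE 0.119, adjusted p = 0.0217 by edgeR) rested in part on old library d149026, which held the highest value. Without d149034 it was 0.35 (adjusted p = 0.0271 by edgeR). Without d149026 it was 0.27 with an adjusted p of 0.0541 by edgeR. Igfbp5 also did not pass with age under limma on log2 FPKM.

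The remaining binding proteins did not pass the test. Igfbp6 had few counts, 8 to 12 per young and 7 to 25 per old library. Old libraries split into 4 above every young library and 4 among the young ones, with a log2 fold change of 0.68 (SE 0.258, adjusted p = 0.0547 by edgeR). Igfbp6 passed when any 1 of the old libraries d149025, d149026, d149027 or d149036 was left out, with a log2 fold change of 0.74 to 0.76 and adjusted p from 0.0352 to 0.0441 by edgeR. Igfbp3 ran from 7.41 to 11.1 CPM in young and from 7.67 to 11.1 CPM in old libraries, a log2 fold change of 0.00 (SE 0.109) whose sign changed with the settings. Igfbp4 ran from 26.6 to 35.9 CPM in young and from 24.7 to 39.7 CPM in old libraries, a log2 fold change of -0.11 (SE 0.0869).

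**Figure D2:**
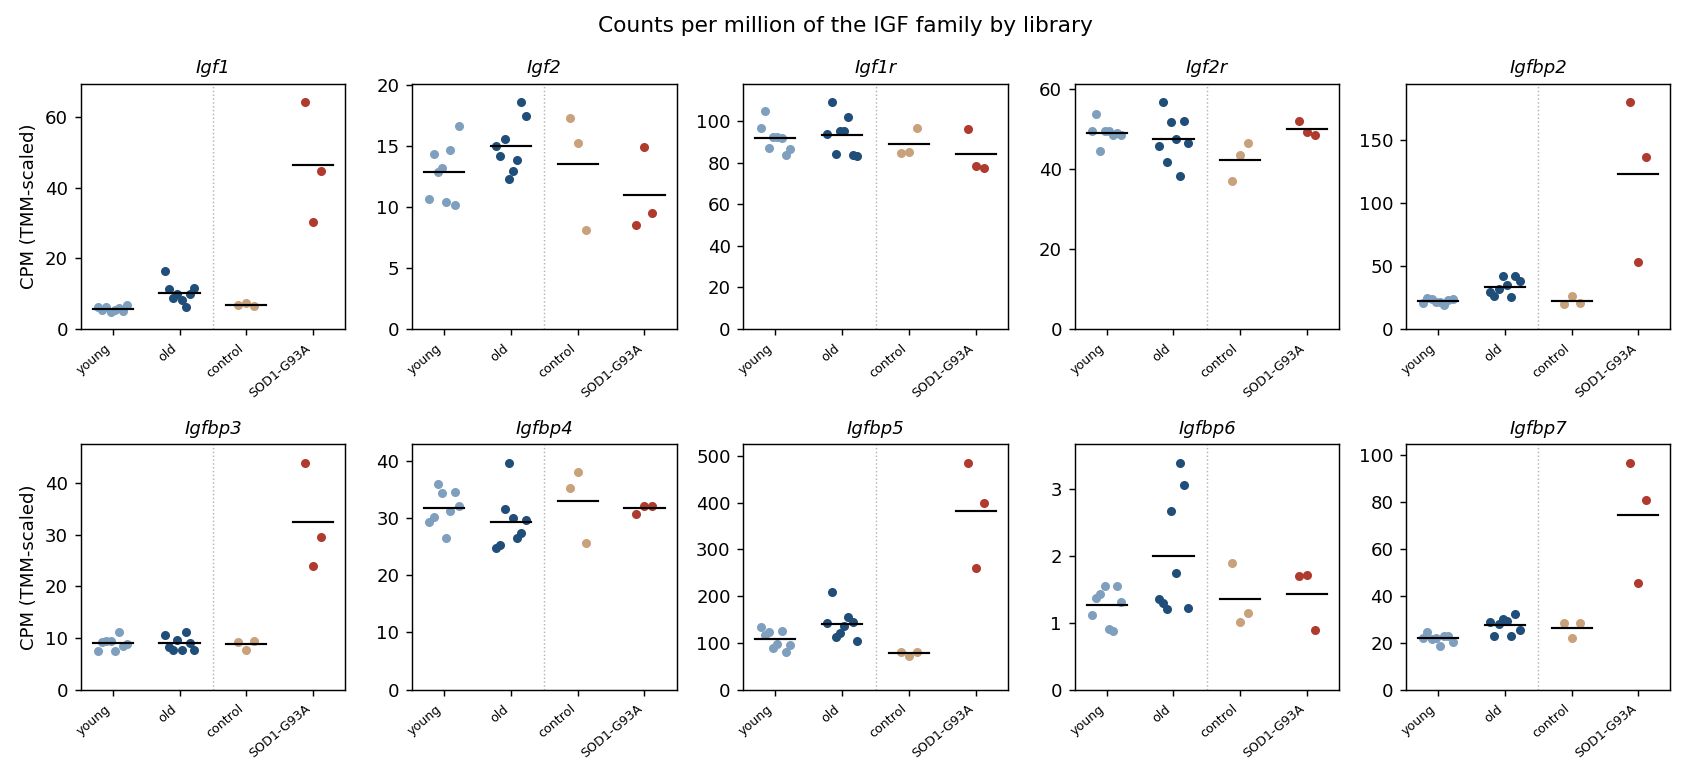
TMM-scaled CPM of each of the 10 members in every library, with 1 panel per gene, points for libraries and a bar at each group mean; the dotted line divides the 2 comparisons, which used different kits and were scaled apart. In SOD1-G93A mice Igf1, Igfbp2, Igfbp3, Igfbp5 and Igfbp7 stand above all controls, and in old mice Igfbp2 stands above all young libraries.

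In SOD1-G93A mice the same ligand and the same 3 binding proteins were higher, joined by Igfbp3, by 2.83-fold to 6.85-fold. That is 5 of 10 members higher, where 18.4% of all 14386 genes tested were higher, and all 5 passed a log2 fold change of 1, where 8.50% of all genes did. None fell, where 15.5% of all genes did, and 0 fell at an unadjusted p under 0.05 by edgeR or by DESeq2. The number of all genes lower, 2236, depended on single libraries and ran from 715 without d4443 to 3172 without d4437, and the number higher, 2641, from 1638 to 3476 without the same libraries. The median log2 fold change of the members was 0.87, beside 0.00 over all genes tested. Every SOD1-G93A library was above every control for 6 of 10 members, these 5 and Igf2r, where 25.7% of all genes had this separation.

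Igf1 stood at 6.74, 7.24 and 6.38 CPM in the controls and at 64.3, 30.2 and 44.7 CPM in SOD1-G93A libraries d4435, d4437 and d4443. The groups were far apart, and d4437 was the lowest of its group. The log2 fold change was 2.78 (SE 0.262, adjusted p = 0.000241 by edgeR), a 6.85-fold rise that was higher in 3 of 3 SOD1-G93A libraries. Without d4437 it was 3.01 (SE 0.165). Igf2, by contrast, stood at 17.3, 15.2 and 8.14 CPM in controls and at 8.56, 14.9 and 9.49 CPM in SOD1-G93A libraries. The groups overlapped, with a log2 fold change of -0.30 (SE 0.301, adjusted p = 0.467 by edgeR), and -0.57 without d4437.

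Neither receptor passed the test in SOD1-G93A mice. Igf1r ran from 84.8 to 96.7 CPM in controls and from 77.6 to 96.3 CPM in SOD1-G93A libraries, with a log2 fold change of -0.08 (SE 0.109, adjusted p = 0.607 by edgeR). Igf2r ran from 37.0 to 46.6 CPM in controls and from 48.7 to 52.1 CPM in SOD1-G93A libraries, which did not overlap. Its log2 fold change of 0.24 (SE 0.104) had an unadjusted p of 0.0484 and an adjusted p of 0.108 by edgeR.

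Igfbp2 stood at 20.2, 25.8 and 20.8 CPM in the controls and at 180, 53.3 and 136 CPM in SOD1-G93A libraries d4435, d4437 and d4443. All 3 were above the controls, and d4437 was well below the other 2, at 2.39 times the control mean where d4435 was at 8.09 times. On average the log2 fold change was 2.47 (SE 0.377, adjusted p = 0.00216 by edgeR), a 5.54-fold rise, and 2.83 (SE 0.137) without d4437.

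Igfbp5 stood at 81.3, 72.1 and 80.2 CPM in the controls and at 486, 260 and 399 CPM in the same SOD1-G93A libraries. The lowest of them was over 3 times the control mean. Its log2 fold change was 2.29 (SE 0.205, adjusted p = 0.000202 by edgeR), a 4.90-fold rise, and 2.51 (SE 0.100) without d4437.

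Igfbp3, the main carrier of Igf1 in blood, stood at 9.21, 7.75 and 9.45 CPM in the controls and at 44.0, 23.9 and 29.6 CPM in SOD1-G93A libraries. These did not overlap, although the same gene had a log2 fold change of 0.00 with age. The log2 fold change here was 1.89 (SE 0.224, adjusted p = 0.000642 by edgeR), a 3.70-fold rise, and 2.07 (SE 0.179) without d4437.

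Igfbp7 stood at 28.7, 22.1 and 28.4 CPM in the controls and at 96.9, 45.5 and 80.8 CPM in SOD1-G93A libraries, again without overlap. Its log2 fold change was 1.498 (SE 0.247, adjusted p = 0.00309 by edgeR), a 2.83-fold rise, and 1.76 (SE 0.126) without d4437. Igfbp7 shares its locus with Polr2b on the opposite strand, and whether counting used the strand of reads is not stated. The same doubt holds for Igf1, Igf2 and Igf2r, which have the antisense genes Igf1os, Igf2os and Airn, none of them in the tables. Polr2b did not pass in SOD1-G93A mice, with a log2 fold change of -0.19 (adjusted p = 0.257 by edgeR).

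The other binding proteins did not pass. Igfbp4 ran from 25.7 to 38.1 CPM in controls and from 30.7 to 32.1 CPM in SOD1-G93A libraries, with a log2 fold change of -0.06 (SE 0.144). Igfbp6 had 12 to 20 counts per control and 10 to 20 counts per SOD1-G93A library, with a log2 fold change of 0.09 (SE 0.401), and an SE that leaves room for sizeable changes in either direction. The sex mix of the ALS groups could be entered through Y-linked counts, as an alternative chosen after seeing the data. The 5 rises then had log2 fold changes of 2.74 for Igf1, 2.41 for Igfbp2, 2.27 for Igfbp5, 1.86 for Igfbp3 and 1.48 for Igfbp7.

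**Figure D3:**
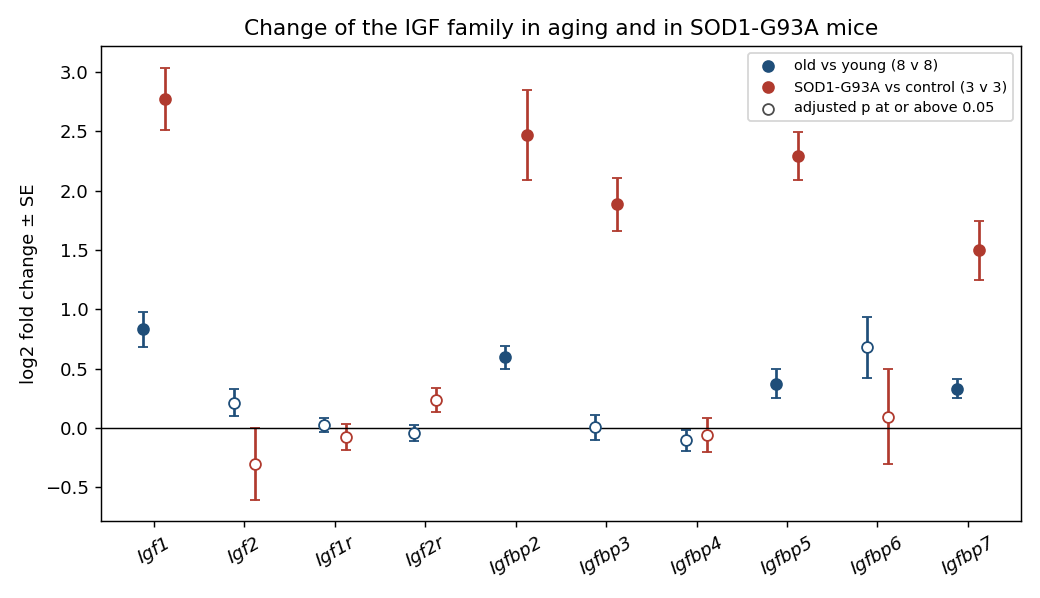
Log2 fold change of each member with its SE, for old against young mice (8 against 8) and SOD1-G93A against control mice (3 against 3); filled points had an adjusted p under 0.05 by edgeR and open points did not. Igf1, Igfbp2, Igfbp5 and Igfbp7 are filled in both comparisons and Igfbp3 only in SOD1-G93A mice.

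Whether the ALS change was larger than the aging change was tested as a difference of log2 fold changes in 1 edgeR fit of all 22 libraries. For 5 of 10 members the ALS change was the larger, where 11.6% of all 14502 genes tested had a larger change. The differences in log2 fold change were 1.92 for Igf1 (adjusted p = 3.71e-05 by edgeR), 1.89 for Igfbp5 (1.25e-05), 1.85 for Igfbp3 (4.52e-06), 1.85 for Igfbp2 (0.000109) and 1.14 for Igfbp7 (0.000271). Igf2, with a difference of -0.54 that did not pass, passed as smaller when d4437 (-0.83, adjusted p = 0.0203 by edgeR) or control d4444 (-0.81, adjusted p = 0.0180 by edgeR) was left out. Igfbp3 was the member that passed in SOD1-G93A mice alone, and its difference between the comparisons passed too. The ages and kits of the comparisons differ, and the old mice were older than the SOD1-G93A mice.

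Summed over the 6 binding proteins, RNA per length ran from 69.4 to 87.3 FPKM with a median of 78.5 in young, and from 82.6 to 113 FPKM with a median of 97.9 in old libraries. The sum was 67.7 to 77.8 FPKM in controls and 152 to 332 FPKM in SOD1-G93A libraries, the lowest being d4437. The ligands Igf1 and Igf2 together ran from 5.58 to 6.46 FPKM in controls and from 16.5 to 29.2 FPKM in SOD1-G93A libraries. This ligand sum depends in part on the length assigned to Igf1, described next. Binding proteins thus exceeded ligands at the RNA level in all 4 groups. Their mix shifted: Igfbp4 made up a median of 24.6% of the binding protein sum in controls and 6.20% in SOD1-G93A libraries, while Igfbp2 went from 22.4% to 38.3%. Since Igfbp4 itself had a log2 fold change of -0.06, its smaller share accompanied the rise of Igfbp2, Igfbp3, Igfbp5 and Igfbp7.

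The FPKM and count tables differed for Igf1. Mean FPKM rose 3.08-fold with age and 11.8-fold in SOD1-G93A mice, against 1.79-fold and 6.84-fold for mean CPM. The ratio of count to FPKM gives the transcript length that the authors' estimate assigned. For Igf1 this implied length had a median of 4578 bases in young and 2225 bases in old libraries, and 7 of 8 old libraries were below every young library. It was 5928, 5695 and 2521 bases in the controls and 2503, 2855 and 2190 bases in SOD1-G93A libraries, so control d4444 lay among the SOD1-G93A values. Of 13647 genes, 2 had a lower log2 ratio of median lengths with age than the -1.04 of Igf1, and in SOD1-G93A mice 4 of 14375 genes were below its -1.19. The annotation lists 8 coding Igf1 transcripts of 510 to 7052 bases. The assigned length of Igf1 was thus shorter in most old libraries, with overlap between the groups in both comparisons. With 25 to 54 counts per young library it rests on few reads, and whether the transcripts themselves differed was not tested.

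For other members the implied length moved less. In SOD1-G93A mice the log2 ratio was -0.43 for Igf2 and 0.29 for Igfbp4, with overlapping groups, and in the other 7 members and in aging outside Igf1 it lay between -0.10 and 0.06.

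**Figure D4:**
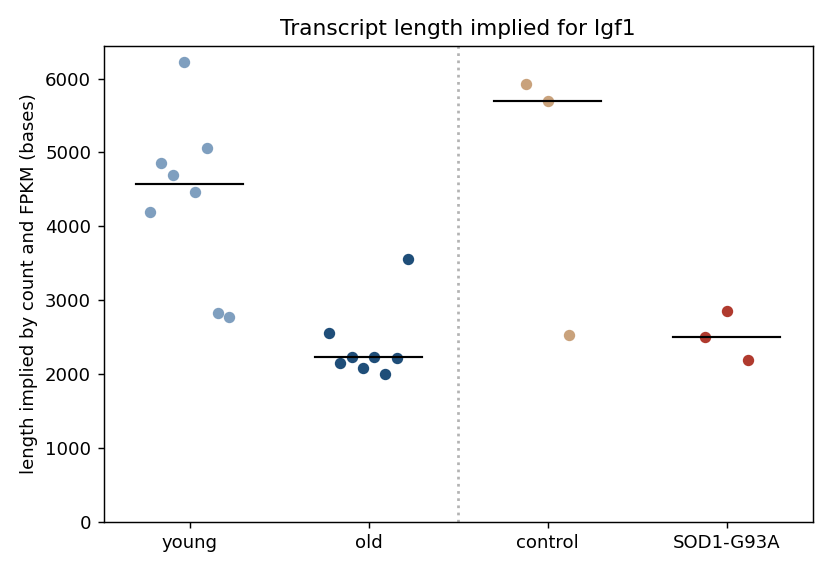
Transcript length implied for Igf1 by the ratio of its count to its FPKM, in bases, for each library by group, with a bar at each group median. Old and SOD1-G93A libraries lie mostly below young and control libraries, and control d4444, at 2521 bases, lies among the SOD1-G93A libraries.

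Marker genes of the cell types that a spinal cord can hold were set beside these results, and their part in the result was not tested. Over all genes tested, 13.5% rose and 12.9% fell with age, while 18.4% rose and 15.5% fell in the ALS comparison, so 1 gene of a list of 8 or 10 is close to these shares. Microglial markers rose with age for 7 of 10 genes, Csf1r and Cx3cr1 among them, and none fell. Their summed level ran from 357 to 399 CPM in young and from 506 to 729 CPM in old libraries. In SOD1-G93A mice 6 of 10 rose, with sums of 378 to 446 CPM in controls and of 1751, 1148 and 1479 CPM in d4435, d4437 and d4443. Markers of the disease-associated microglial state rose for 11 of 11 genes tested in both comparisons, with Apoe the most abundant. Apoe alone made up 57.4% of their summed level in the aging and 58.9% in the ALS comparison, so these sums largely follow 1 gene. The disease-associated sums ran from 2024 to 2228 CPM in young and from 2900 to 4827 CPM in old libraries. The lowest old library was d149034 for both microglial lists, and also for the tissue-border macrophage and the pericyte and smooth muscle sums. That library was lowest for 44.4% of all 1839 genes that rose with age, Igf1 among them. In SOD1-G93A mice the disease-associated sum went from 1850 to 2062 CPM in controls to 16870, 7063 and 12406 CPM in d4435, d4437 and d4443. The 5 risen members had the same order of these 3 libraries. So did the sums of the microglial, tissue-border macrophage, meningeal fibroblast and astrocyte markers. Library d4437 was lowest for 88.03% of all 2641 genes that rose, and the share of all genes with the full order was not computed.

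Macrophages of the tissue borders, led by Stab1, had 1 of 7 markers testable in aging, which did not pass, and in SOD1-G93A mice 3 of 5 tested rose, Mrc1, Stab1 and Ms4a7. Their sums went from 10.5 to 13.6 CPM in controls to 30.4 to 59.2 CPM in SOD1-G93A libraries. Meningeal fibroblasts, led by Col1a2, are known sources of IGF binding proteins and Igf2. Of their markers 0 of 7 passed in aging, and in SOD1-G93A mice 1 of 9, Col1a1, rose with a log2 fold change of 1.35. The fibroblast sum was 57.6 to 62.1 CPM in controls and 151, 63.7 and 84.5 CPM in d4435, d4437 and d4443, and Slc22a6 was at the floor in both comparisons.

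Astrocyte markers rose for 4 of 9 genes with age and 1, Gja1, fell, with sums of 7863 to 8801 CPM in young and 9143 to 10134 CPM in old libraries and Slc1a2 the most abundant. In SOD1-G93A mice 7 of 9 rose, led by Gfap with a log2 fold change of 2.40, and sums went from 7246 to 7701 CPM in controls to 21147, 13204 and 18341 CPM in d4435, d4437 and d4443. Ependymal markers, led by Foxj1, rose for 1 of 5 with age, Rarres2, and for 5 of 5 in SOD1-G93A mice, with sums of 35.3 to 41.5 CPM in controls and 51.9 to 77.5 CPM in SOD1-G93A libraries. Pericyte and smooth muscle markers, led by Rgs5, had 1 higher (Tagln) and 1 lower (Myh11) of 10 with age and 5 higher and 1 lower of 10 in SOD1-G93A mice. Their sums of 305 to 363 CPM in SOD1-G93A libraries overlapped with 284 to 366 CPM in controls. Endothelial markers, led by Flt1, had 2 of 10 lower with age and 1 of 10 lower in SOD1-G93A mice, Tie1, with none higher.

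Neuronal markers, led by Snap25, fell for 5 of 10 genes with age and for 8 of 10 in SOD1-G93A mice, where sums went from 9232 to 9690 CPM in controls to 3669 to 6204 CPM. Motor neuron markers, led by Slc5a7, fell for 1 of 8 with age, Chodl, and for 6 of 8 in SOD1-G93A mice, with sums of 287 to 322 CPM in controls and 141 to 156 CPM in SOD1-G93A libraries. Oligodendrocyte markers, led by Mbp, had 1 higher and 3 lower of 8 with age and 0 of 8 passing in SOD1-G93A mice. Precursor markers, led by Sox10, had 1 higher and 2 lower of 6 with age and 1 higher of 6, Gpr17, in SOD1-G93A mice. Markers of root Schwann cells, led by Mal, which oligodendrocytes also express, had 2 of 4 tested lower with age and 2 of 6 tested higher in SOD1-G93A mice, Egr2 and Drp2. Skeletal muscle markers, led by Actn3 in aging and Mylpf in the ALS comparison, summed to 1.90 to 5.65 CPM over all libraries of both comparisons. They were too low to test, apart from Mylpf in the ALS comparison, which did not pass. Blood markers, led by Hba-a2, had 0 of 5 passing in either comparison. Of 6 position genes tested 1 fell in each comparison, Hoxc6 with age and Hoxb8 in SOD1-G93A mice.

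**Figure D5:**
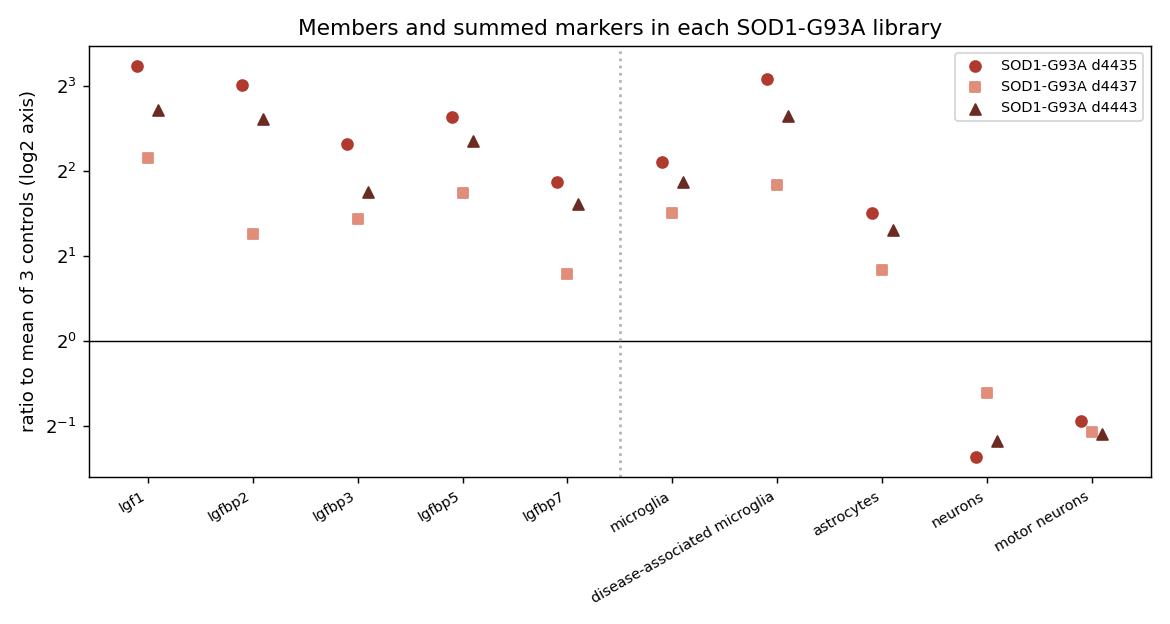
Ratio of each SOD1-G93A library to the mean of the 3 controls, on a log2 axis, for the 5 members that rose and for summed CPM of 5 marker lists. Library d4437 has the lowest ratio for all 5 members and for the microglial, disease-associated and astrocyte sums, and the highest for neurons.

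The wider IGF and insulin pathway was read from a list of 56 further genes, of which 48 were tested in aging and 50 in the ALS comparison. With age 9 of 48 rose and 11 fell, 18.8% and 22.9% of the list, where 13.5% and 12.9% of all genes did. In SOD1-G93A mice 13 of 50 rose and 9 fell, 26.0% and 18.0%, where 18.4% and 15.5% of all genes did. The count higher with age includes Igfbpl1, Ccn5 and Eif4ebp1, which had few counts in young mice and passed the filter through the old group. The count higher in SOD1-G93A mice includes Ccn5, Igfbpl1 and Socs3, with 1 to 7, 4 to 11 and 5 to 21 counts per control. Both shares higher therefore rest in part on genes with few counts in young or control mice. Shares without these genes were not computed. The median log2 fold change of the list was -0.01 with age and 0.05 in SOD1-G93A mice. The list mixes secreted, receptor and intracellular genes, so its median does not describe any of these alone.

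Among secreted and lysosomal genes, Ctsd, a lysosomal protease that can cut binding proteins, ran from 355 to 401 CPM in young and 568 to 1253 CPM in old libraries, without overlap. On the log2 scale it rose by 1.496 with age and by 3.19 in SOD1-G93A mice (adjusted p = 3.73e-10 and 0.000197 by edgeR). The binding-protein-like gene Igfbpl1 had 0 to 3 counts per young library and 10 to 98 per old library. The ratio of its pooled counts, scaled by depth, was 38.6 with a 95% exact (Clopper-Pearson) interval of 21.9 to 75.4, which covers counting error only. In SOD1-G93A mice its counts went from 4 to 11 per library to 68 to 212, with a ratio of 23.0 and an interval of 15.1 to 36.6. Ccn5, of the CCN family that shares the IGF binding domain, had 0 to 6 counts per young and 27 to 264 per old library, a ratio of 50.4 with an interval of 33.1 to 80.8. In SOD1-G93A mice its counts went from 1 to 7 per control to 293 to 707, a ratio of 166 with an interval of 92.4 to 333. Both genes were near the floor in young mice and Ccn5 also in controls, so pooled ratios are given in place of fold changes. Ccn1 of the same family rose by 1.76 on the log2 scale with age and by 3.82 in SOD1-G93A mice.

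Mmp2 and Mmp9, metalloproteinases that can cleave binding proteins, went in opposite directions in SOD1-G93A mice. Mmp2 rose, from 3.61 to 5.03 CPM in controls to 8.16 to 10.7 CPM, with a log2 fold change of 1.25. Mmp9 fell from 11.6 to 15.2 CPM in controls to 3.22 to 6.34 CPM, with a log2 fold change of -1.59 (SE 0.254). With age their log2 fold changes were 0.07 and -0.22, and neither passed. Ide, an insulin-degrading protease, fell with age by 0.62 on the log2 scale and did not pass in SOD1-G93A mice (log2 fold change 0.06). Pappa, Pappa2 and Stc1 of the same list also fell with age, with log2 fold changes of -0.38, -0.79 and -0.65. Their adjusted p values by edgeR were 0.0496, 0.0337 and 0.0146. In SOD1-G93A mice Stc1 fell, with a log2 fold change of -0.89, while Pappa (-0.56) and Pappa2 (-0.09) did not pass. Adamts1 of the same list rose there by 0.95 (adjusted p = 0.0101 by edgeR) and did not pass with age (0.18). Htra1 and Htra3 did not pass in either comparison.

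Inside the cell, a pair of genes that restrain signaling stood higher in both comparisons, with overlap between young and old libraries. Socs3, an inhibitor of cytokine and insulin signaling, rose by 1.61 on the log2 scale with age and by 4.499 in SOD1-G93A mice, where it went from 0.384 to 1.99 CPM in controls to 16.1 to 34.7 CPM. Eif4ebp1, a translation repressor under mTOR control, had 3 to 11 counts per young and 6 to 35 per old library. The ratio of its pooled counts with age, scaled by depth, was 3.49 with a 95% interval of 2.56 to 4.83. That interval covers counting error only. In SOD1-G93A mice Eif4ebp1 rose by 2.75 on the log2 scale, from 11 to 17 counts per control. Both are low genes, and Socs3 had 9 to 28 counts per young library and 5 to 21 per control.

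Kinase cascade genes went both ways with age. The adaptor Shc1 rose by 0.37 on the log2 scale and Akt1 by 0.12, while others fell by small amounts: Sos1, which activates Ras, by -0.26 in log2 fold change, the PI3 kinase genes Pik3ca by -0.17, Pik3cb by -0.23 and Pik3r1 by -0.19, and the kinase Gsk3b by -0.15. In SOD1-G93A mice cascade genes again went both ways: Shc1 rose by 0.64 on the log2 scale and Akt2 by 0.32, while Gsk3b fell by 0.53 (adjusted p = 0.00696 by edgeR). Shc1 did not pass without control d4441 (0.65), control d4444 (0.59) or d4443 (0.60), and Akt2 passed only when d4437 (0.41) was the library left out, with 0.27 to 0.37 otherwise. Pik3cb, with a log2 fold change of -0.44, did not pass when control d4441 (-0.38) or SOD1-G93A library d4443 (-0.37) was left out. Sos1, at -0.53, did not pass without control d4441 (-0.44), control d4444 (-0.57), d4435 (-0.47) or d4443 (-0.42). Irs4, an insulin receptor substrate, had a log2 fold change of -1.10, with 31 to 46 counts per control and 13 to 18 per SOD1-G93A library. It did not pass without control d4438 (-1.05), control d4444 (-1.01) or d4443 (-1.15). The count of 9 pathway genes lower in SOD1-G93A mice was 3 without d4443, 4 without control d4441 and 5 without control d4444. In the test of the difference, 7 of 50 pathway genes had a larger and 8 a smaller change in SOD1-G93A mice, where 11.6% and 14.2% of all genes did.

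Igfbp2 and Igfbp5 are neighbours on chromosome 1, on opposite strands and 5457 bases apart, and both rose in both comparisons. Of the flanking genes tested, Rpl37a rose as well, with log2 fold changes of 0.35 in aging and 0.57 in SOD1-G93A mice, and so did Arpc2 with 0.21 and 0.48. March4, Smarcal1, Tns1 and Aamp did not pass in either comparison. The flanking genes stayed below a log2 fold change of 1, while the pair had 2.47 and 2.29 in SOD1-G93A mice. Within the 16 aging libraries, after each group was centred on its mean, the pair had a Pearson r of -0.50 in log2 CPM, a description without a test. Igfbp2 was closer to Igfbp7 (r = 0.63) and Igfbp5 to Igf1r (r = 0.69). Igf1 had r = 0.11 with both Igfbp2 and Igfbp5.

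Over the same 16 libraries and genes with a mean of at least 5 CPM, the genes most like each member were found by Pearson r, again as a description of libraries that share a kit and differ in depth. Those most like Igf1 were Trub2 (r = 0.83), Erbin and Lama5, and those most like Igf2 were Gm14418 (0.82), Dram2 and Tank. For the receptors they were Mprip (0.91), Col19a1 and Sptb with Igf1r, and Clba1 (0.87), Nell1 and Wdr90 with Igf2r. Igfbp2 was nearest to Plod3 (0.87), Rnf41 and Tpt1, and Igfbp3 to Fstl5 (0.75), Ankrd24 and Ikzf4. Igfbp4 was nearest to Egln2 (0.86), Nudt1 and Cdc42ep4, and Igfbp5 to Ttc28 (0.91), Itpr1 and Prune2. Igfbp6 was nearest to Mettl23 (0.80), Ptms and Mmrn2, and Igfbp7 to Parp6 (0.79), Kcne1l and Gm4737. None of these genes belongs to the marker lists or the pathway list.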

How the data were processed

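Per the labels, the authors extracted RNA from whole spinal cord and used RSEM and SAMtools 1.3 on mm10; they deposited a table of RSEM expected counts and a table of log2 values, the log2 of FPKM plus 1, for 21995 genes in 22 libraries. Columns carry a group and a library code. The expected counts, as deposited, were whole in 100.0% of cells, so rounding changed none. FPKM was recovered from the deposited log2 values; 304 cells had FPKM above 0 and a count of 0. Positions are from GENCODE M21 on GRCm38, which holds 21919 of the genes.

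Each comparison was fitted alone in edgeR 4.0.16 (R 4.3.3): filterByExpr (at least 10 counts per library in enough libraries and 15 in total), TMM scaling and the quasi-likelihood test, with p adjusted by Benjamini-Hochberg across every gene that passed the filter. The edgeR step was tested on simulated data. SE is the log2 fold change divided by the square root of F. Alternatives used DESeq2 1.42.0, RLE scaling, other filters, 1 fit of all libraries, limma 3.58.1 on log2 FPKM, and each library left out within its comparison. For the difference only control and SOD1-G93A libraries were left out. Named pathway genes were taken from those past both thresholds and the 4 with the smallest adjusted p in each comparison and direction. Shc1, Akt1 and Akt2 were added later beside the cascade genes that fell, and Pappa, Pappa2, Stc1, Adamts1, Htra1 and Htra3 beside the proteases. The members, the pathway list and the marker lists were chosen with earlier results of these data known; Clec7a of the disease-associated list was not among the genes.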

Additional observations from a re-analysis of the deposited data

Results flagged for a closer look

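Of 20 groups of 8 libraries examined, 10 members in young and in old mice, 1 had a library far from the others, and chance gives about 1 in 20. It was Igfbp4 in old mice: d149028 held 39.7 CPM, the nearest old library 31.5 CPM and the lowest 24.7 CPM, so the gap was 0.548 of the range. Igfbp4 did not pass the test in either comparison.

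For 5 members the SOD1-G93A change differed from the aging change by the edgeR test of that difference. On the log2 scale the differences were 1.92 for Igf1, 1.85 for Igfbp2, 1.85 for Igfbp3, 1.89 for Igfbp5 and 1.14 for Igfbp7, in each case larger in SOD1-G93A mice. The comparisons used different kits, ages and sexes, and the part of these in the differences was not tested.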

How the results depend on the processing

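With 3 libraries per ALS group, and d4437 with smaller changes for most called genes, sizes in SOD1-G93A mice are less certain than directions. With each ALS library left out in turn, log2 fold changes ran from 2.47 to 3.01 for Igf1 and 2.10 to 2.83 for Igfbp2. They were 2.09 to 2.51 for Igfbp5, 1.61 to 2.07 for Igfbp3 and 1.27 to 1.76 for Igfbp7. In aging they were 0.70 to 0.91 for Igf1, 0.54 to 0.64 for Igfbp2, 0.27 to 0.43 for Igfbp5 and 0.29 to 0.37 for Igfbp7. The number of members higher in SOD1-G93A mice was 5 under all 13 alternatives, the Y-linked covariate added after seeing the data included. In aging it was 4, with 3 under limma on log2 FPKM, where Igfbp5 had an adjusted p of 0.0745, and 4 to 5 with a library left out. Without d149026 it was 4 with other members, as Igfbp5 did not pass (adjusted p = 0.0541) and Igfbp6 did. In the difference the number of members that passed was 5, all larger in SOD1-G93A mice, and 5 to 6 with a library left out, where the added member, Igf2, was smaller.

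Members that did not pass had signs that turned. In aging, with a library left out, log2 fold changes ran from -0.0167 to 0.0489 for Igf1r and from -0.0416 to 0.0578 for Igfbp3, which was -0.000217 under limma and -0.0046 with no filter. In SOD1-G93A mice they ran from -0.21 to 0.0565 for Igfbp4 and from -0.0786 to 0.40 for Igfbp6, and Igf2 was 0.0390 under limma. The Igfbp4 difference ran from -0.13 to 0.14 and was -0.0308 under limma. The cause was not tested.

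Among all genes called in SOD1-G93A mice, 54.2% were higher. This share was 66.6% under limma on log2 FPKM and 47.2% in 1 fit of all libraries, with 2962 higher and 3316 lower, so the majority turned. It ran from 52.3% to 69.6% with a library left out, where the number lower, 2236, ran from 715 to 3172 and the number higher, 2641, from 1638 to 3476. Under limma the number lower was 1297. In aging limma called 964 genes lower beside 1761. In the difference the larger share was 44.9%, and 60.9% under limma.

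The pathway count lower in SOD1-G93A mice, 9, ran from 3 to 9 with a library left out, and the count higher, 13, from 9 to 15. Igfbp6 had no aging value under the filter of 10 counts in every library. No paired analysis was possible because the table columns carry a group and a library code but no replicate number. Depth limits Igfbp6 and the Igf1 transcript mix.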
